A study of Homo sapiens with 4 samples.

Results

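The HOXD cluster and its surroundings on chromosome 2 were described here from BAF45D peak lists of 2 cell types. The members are the 9 genes HOXD1, HOXD3, HOXD4, HOXD8, HOXD9, HOXD10, HOXD11, HOXD12 and HOXD13, out of 19970 protein-coding genes examined, and they were taken by name. The peaks are all those between 175587487 and 176690907 (hg38), which is the cluster (176087487 to 176190907, 103 kb) with 500 kb on either side. That window held 33 of the 71189 peaks of the 4 lists, and these merged into 25 regions. BAF45D is the protein of the DPF2 gene and belongs to BAF, a complex that moves nucleosomes. CUT&Tag uses an antibody to bring a transposase to the target protein, so that fragments come from DNA beside it.

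Both cell types came from H9, 1 established human embryonic stem cell line. ESC1 and ESC2 are libraries of undifferentiated H9 cells, kept on Matrigel in mTeSR1. NSC1 and NSC2 are libraries of spinal cord neural stem cells made from H9. Per the labels' protocols, those cells went through 10 days in N2B27 with LDN-193189, SB431542, CHIR-99021, FGF2, FGF8 and DAPT, with Y-27632 at each passage. LDN-193189 and SB431542 block BMP and TGF-beta receptors, CHIR-99021 activates WNT signalling, and DAPT blocks Notch cleavage. The later media held SB-431542, CHIR-99021 and a hedgehog agonist, and then FGF2 and EGF. The labels do not give the stage at which NSC were assayed, and do not say whether the 2 libraries of a cell type came from separate cultures, so their spread may be technical.

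HOX genes encode homeodomain factors that give cells their position along the body axis. In the HOXD cluster the genes lie in the order of their domains: HOXD1, HOXD3 and HOXD4 act anteriorly, HOXD8 and HOXD9 in the trunk, and HOXD10 to HOXD13 posteriorly, in the lumbosacral cord, limbs and genitalia. The cluster sits at a boundary between regulatory domains. EVX2, a homeobox gene, and LNPK, which shapes the endoplasmic reticulum, lie beyond HOXD13. MTX2, a mitochondrial import gene, and a gene desert lie beyond HOXD1. HOX clusters are silenced by Polycomb in pluripotent cells and are opened in order from the HOXD1 end during axial patterning, and BAF complexes are known to oppose Polycomb.

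The lists held 4204 and 12533 peaks in ESC1 and ESC2 and 29783 and 24669 in NSC1 and NSC2, from 20734829, 18953543, 5566407 and 5377831 tags in the same order. ESC peaks were thus fewer although those libraries were deeper, and a missing peak says only that the threshold was not passed. Of 6 neural stem cell markers, 4 had a gene-end peak in each NSC library and 1 in each ESC library. That 1 was SOX2, which is also on the list of pluripotency markers, and PAX6 and MSI1 were called in no library. NKX6-1 and OLIG2 of the 3 spinal cord markers were called in both NSC libraries, and HOXB4 in no library. Of 6 pluripotency markers, SOX2 included, 2 and 3 were called in ESC1 and ESC2 and 2 in each NSC library. POU5F1, NANOG and ZFP42 were called in none. Of all protein-coding genes, 42.8% in NSC1, 38.1% in NSC2, 6.67% in ESC1 and 22.8% in ESC2 had such a peak, within 1 kb of either end, so any list leans to NSC. The neural crest and endoderm markers had no peak, and the mesoderm genes MEOX1 and TBX6 had 1 and 2 calls in NSC1 and NSC2. A peak at a gene is not a measure of its expression.

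In the window of the HOXD cluster, BAF45D peaks were found almost entirely in the NSC lists. ESC1 had 0 peaks, ESC2 had 2, NSC1 had 15 and NSC2 had 16. The cell types did not overlap: the mean number of peaks was 15.5 ± 0.707 for NSC (SD, n = 2) and 1.0 ± 1.41 for ESC (SD, n = 2). The exact two-sided permutation p of 0.333 is the smallest that 2 libraries against 2 can give, so no threshold of 0.05 could be passed. At the genome rate of the NSC1 and NSC2 lists a stretch this long would hold 10.6 and 8.78 peaks, and at that of the ESC1 and ESC2 lists 1.50 and 4.46. Stretches of this length centred on protein-coding genes held medians of 14 peaks in NSC1 (quartiles 10 and 19), 12 in NSC2 (8 and 16), 2 in ESC1 (1 and 4) and 6 in ESC2 (4 and 11). The NSC1 count of the window lay within those quartiles and the NSC2 count at the upper one, and both ESC counts lay below theirs. With each list taken to the length of the shortest, 0, 0, 2 and 3 peaks were left in ESC1, ESC2, NSC1 and NSC2, and none of them lay in the cluster.

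**Figure D1:**
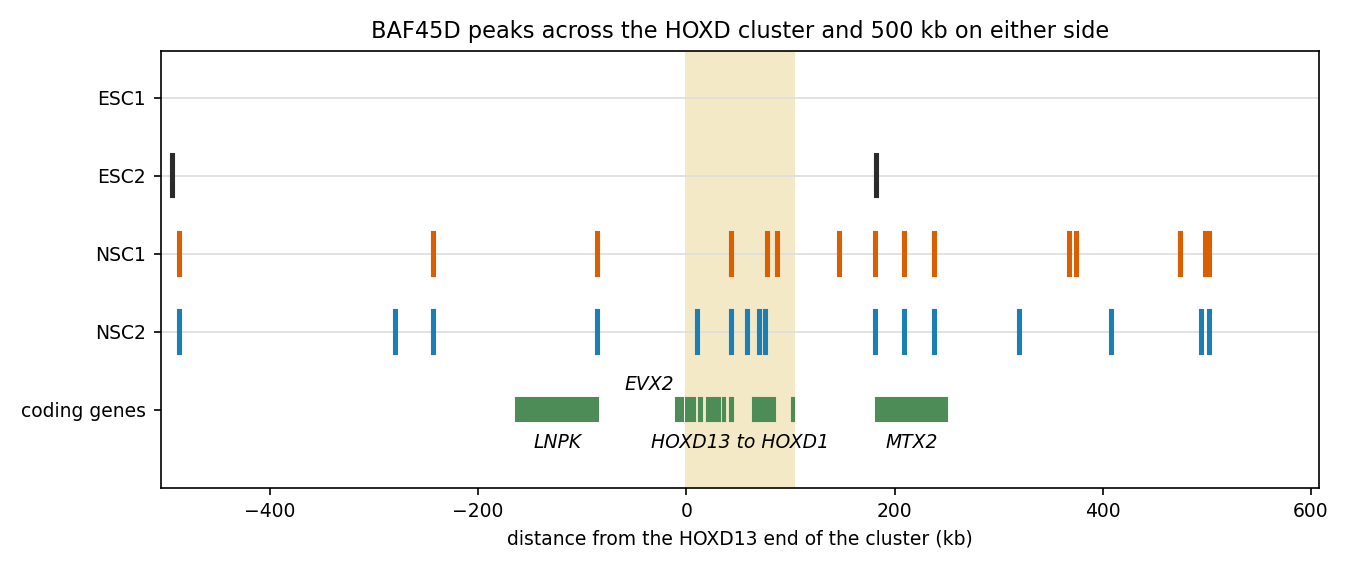
Positions of the BAF45D peaks of each library (coloured bars, drawn at least 3 kb wide to be visible) along the window, in kb from the HOXD13 end of the cluster, with coding genes in green and the cluster shaded. ESC1 has 0 and ESC2 has 2 peaks, while NSC1 and NSC2 have 15 and 16, of which 8 in each list overlap one of the other.

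Inside the cluster neither ESC library had a peak, and the NSC libraries had 3 and 5. The NSC mean was 4.0 ± 1.41 (SD, n = 2) and the ESC mean was 0 (exact two-sided permutation p = 0.333). ESC lists at their genome rate would hold 0.140 and 0.418 peaks in this length, fewer than 1, so an empty cluster is not a result about ESC. Those rates are 0.994 and 0.823 peaks for NSC1 and NSC2, and the observed numbers were 3.02 and 6.07 times as high. Over all protein-coding genes, a stretch of the same length centred on the gene held a median of 1 peak in NSC1 (quartiles 0 and 3) and of 1 in NSC2 (0 and 2). The NSC1 count was therefore at the upper quartile and the NSC2 count above it. In ESC1 and ESC2 the medians were 0 (quartiles 0 and 0) and 1 (0 and 1), so the ESC counts of 0 lay at the lower quartiles.

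HOXD8 was the 1 place in the cluster where both NSC libraries had a peak. The NSC1 peak ran from 176130340 to 176130946 and the NSC2 peak from 176130688 to 176130988, and their summits were 3 bp apart. Pileups, the authors' depth of extended reads at the summit, were 21 and 17. The authors' −log10 q, the strength of a peak against the surroundings in its own library, was 5.93 in NSC1 and 4.75 in NSC2. Within the lists these stood at percentiles 55.6 and 44.9, in the middle of all peaks. HOXD8, a trunk-level HOX gene, runs from 176129705 to 176132695, and both peaks lie inside it. They start 635 and 983 bp past its start, so the gene-end call, which takes peaks within 1 kb of either end of a gene, was just met in NSC2 and is lost when the summit alone is placed.

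The same peaks lie at the start of LOC100129455, a long non-coding RNA read from the opposite strand of HOXD8. Its start site, at 176130528, lies under the NSC1 peak and 160 bp from the NSC2 peak. The 250 bases before that start (chr2:176130529-176130778, GRCh38.p14, minus strand, RefSeq) are shown because they hold part of the stretch that both libraries called, and capitals mark the 91 bases under both peaks.
LOC100129455: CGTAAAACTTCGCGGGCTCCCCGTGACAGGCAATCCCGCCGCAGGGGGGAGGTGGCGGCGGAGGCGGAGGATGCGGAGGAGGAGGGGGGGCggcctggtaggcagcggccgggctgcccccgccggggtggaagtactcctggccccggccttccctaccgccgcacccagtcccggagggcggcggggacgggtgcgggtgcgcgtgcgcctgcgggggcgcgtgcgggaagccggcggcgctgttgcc
This stretch is 78.0% G and C and holds 33 CpG dinucleotides, 10 of them within the capitals.

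HOXD3, an anterior HOX gene, held a peak in each NSC list, but not at the same place. NSC1 had 1 peak in it, from 176164877 to 176165174, with a pileup of 23 and a −log10 q of 7.64. That was the strongest peak of the cluster in NSC1. NSC2 had 2 peaks in HOXD3, from 176157711 to 176158099 (pileup 19, −log10 q 5.30) and from 176163091 to 176163290 (pileup 21, 5.44). The former of these lies 404 bp past the RefSeq start site of HOXD3 at 176157307. The NSC1 peak and the nearer NSC2 peak were 1587 bp apart, so both libraries had signal in the same part of the gene without an overlap of peaks. The gene table gives HOXD3 a start of 176152529, inside HOXD4, so none of these peaks counted as a gene-end peak of HOXD3.

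The other peaks of the cluster were each in 1 NSC library. NSC2 had a weak peak 1181 bp before HOXD12 (176098341 to 176098614, pileup 5, −log10 q 2.22). It was the only peak among the posterior genes in any library. NSC2 also had one 5214 bp before HOXD4, between that gene and LOC401021 (176146137 to 176146336, pileup 8, −log10 q 2.98). NSC1 had one in HAGLR, a long non-coding RNA between HOXD3 and HOXD1 (176174603 to 176174802, pileup 12, −log10 q 2.73). These 3 peaks ranked low in their lists, at percentiles 8.79, 19.3 and 14.4. MIR10B, the microRNA gene beside HOXD4, and HAGLROS had no peak at their ends or inside.

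**Figure D2:**
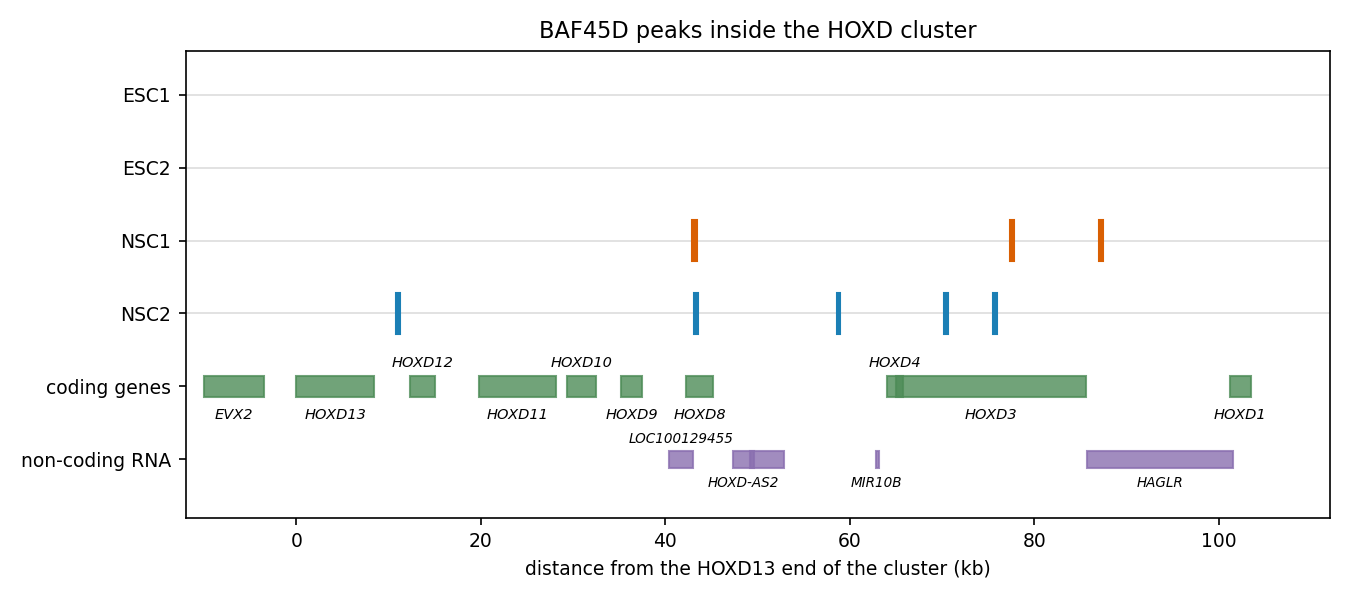
Peaks of each library inside the cluster (coloured bars, drawn at least 0.4 kb wide), in kb from the HOXD13 end, above the coding genes (green) and non-coding RNA genes (purple). NSC1 and NSC2 coincide at HOXD8 alone, both have peaks in HOXD3, and ESC1 and ESC2 have none.

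By the gene-end rule, HOXD8 alone of the 9 members was called in NSC1 and in NSC2, and no member was called in ESC1 or ESC2. Of all protein-coding genes, NSC1 called 42.8%, NSC2 38.1%, ESC1 6.67% and ESC2 22.8%, so gene-end peaks at HOXD genes were not more common than elsewhere in any library. HOXD8 was NSC-only (both NSC libraries and no ESC library), as were 16.2% of all genes. Counting peaks in the gene or within 10 kb, 3 members were called in NSC1 and 7 in NSC2, where 64.2% and 59.2% of genes were. No member was called this way in ESC1 or ESC2, where 15.3% and 43.4% of genes were. HOXD3, HOXD8 and HOXD9 were NSC-only by that rule, against 19.7% of all genes. HOXD genes are short and close together, so 1 peak can serve several of them: HOXD8 and HOXD9 share the peak in HOXD8, and HOXD11, HOXD12 and HOXD13 share the NSC2 peak before HOXD12.

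Along the cluster, calls made by both NSC libraries came from its middle and its HOXD3 part, and NSC2 alone also called 3 posterior genes within 10 kb. None of the 4 posterior genes HOXD10 to HOXD13 held a peak in any library. In NSC1 the nearest peak to each lay 34.4 kb from HOXD13, 27.9 kb from HOXD12, 14.7 kb from HOXD11 and 10.4 kb from HOXD10, all of them the peak in HOXD8. In NSC2 those distances were 2.40, 1.18, 8.67 and 10.8 kb. Both central genes had a peak within 10 kb in both NSC libraries, HOXD9 at 5.40 and 5.75 kb. Of the 3 anterior genes HOXD3 did so, HOXD4 did in NSC2 alone (4.49 kb, against 11.7 kb in NSC1), and HOXD1 in neither (13.9 and 25.4 kb). In ESC2 the nearest peak to any member was 78.9 kb from HOXD1, at MTX2.

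RefSeq promoters, 250 bases before to 50 after the start site, were found for 8 of the 9 members, all but HOXD9. No peak of any library overlapped 1 of these 8 windows. Their CpG numbers ran from 4 in HOXD4 and 19 in HOXD12 to 34 in HOXD8 and 36 in HOXD1, with a median of 24.5, against 14 over 34961 promoters. The GC box GGGCGG, searched on both strands, was in 5 of 8 (45.0% of all promoters), and CCAAT in 6 of 8 (34.6%). TATAAA was in HOXD13 alone (11.5%), and TGACAG, the core of the MEIS motif, in HOXD4 alone (15.8%). AGGGGGC, part of the CTCF motif, was in HOXD8 and HOXD13 (14.4%). These letters describe the windows and do not mark bound sites.

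On the EVX2 side, most BAF45D peaks of NSC were found by both NSC libraries. NSC1 had 3 peaks and NSC2 had 4 in these 500 kb, and 3 regions were common to both. EVX2 had no peak at its ends or inside. LNPK had one at its start in both (176002173 to 176002450 in NSC1, pileup 11, −log10 q 4.62, and 176001953 to 176002468 in NSC2, pileup 8, 2.88). A region 243 kb beyond HOXD13, near the pseudogene EXTL2P1, was called in both NSC libraries (175844131 to 175844488, 7.77 and 4.29). The region at the far edge of the window was stronger, from 175599895 to 175600841 in LOC107985962, a long non-coding RNA gene. It had 2 summits in each NSC list, with −log10 q of 37.4 in NSC1 and 17.7 in NSC2, at percentiles 98.8 and 92.6 of the lists. ESC2 had a peak 5832 bp from the NSC1 peak there (175593956 to 175594155, pileup 9, −log10 q 3.01), outside any gene.

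On the MTX2 side the strongest regions lay inside MTX2 and in the desert beyond it. NSC1 had 9 peaks and NSC2 had 7, with 4 regions in common. Inside MTX2, 27.6 kb past its start, a peak ran from 176297041 to 176297558 in NSC1 and from 176297074 to 176297558 in NSC2. Pileups there were 30 and 34, and −log10 q was 24.3 and 29.2, at percentiles 95.8 and 97.9 of the lists. A further region in MTX2, 11.9 kb before its end, had −log10 q of 12.6 in NSC1 and 8.90 in NSC2 (176325648 to 176326110). In the desert, a region 399 kb from HOXD1 had 8.36 and 14.6 (176590027 to 176590503), and the summits of its peaks in NSC1 and NSC2 were 3 bp apart. The other 8 NSC regions of this side were each called in 1 NSC library, at −log10 q from 1.90 to 7.83.

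The start of MTX2 was the 1 gene end of the window called in ESC as well as in NSC. Peaks covered the start site at 176269442 in NSC1 (176269287 to 176269532, pileup 7, −log10 q 3.32) and in NSC2 (176269085 to 176269475, pileup 5, 1.49). The ESC2 peak began 372 bp inside the gene (176269814 to 176270013, pileup 9, 3.01). It did not overlap the NSC peaks, which ended 282 and 339 bp before it, so the 2 sites counted as separate regions. ESC1 had no peak at MTX2. The LNPK and MTX2 promoters are the coding promoters of the window under a peak of both NSC libraries, and 250 bases before a start site of each are shown (GRCh38.p14, RefSeq), with capitals for the bases under both NSC peaks. The LNPK sequence, from the start site at 176002267, is chr2:176002268-176002517 on the minus strand, and the MTX2 sequence is chr2:176269192-176269441 on the plus strand.
LNPK: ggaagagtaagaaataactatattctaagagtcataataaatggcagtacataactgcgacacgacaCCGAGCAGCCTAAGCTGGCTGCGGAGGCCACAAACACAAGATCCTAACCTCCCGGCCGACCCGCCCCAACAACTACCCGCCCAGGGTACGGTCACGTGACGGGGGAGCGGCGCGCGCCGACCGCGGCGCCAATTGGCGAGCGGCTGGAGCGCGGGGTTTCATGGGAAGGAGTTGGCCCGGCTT
MTX2: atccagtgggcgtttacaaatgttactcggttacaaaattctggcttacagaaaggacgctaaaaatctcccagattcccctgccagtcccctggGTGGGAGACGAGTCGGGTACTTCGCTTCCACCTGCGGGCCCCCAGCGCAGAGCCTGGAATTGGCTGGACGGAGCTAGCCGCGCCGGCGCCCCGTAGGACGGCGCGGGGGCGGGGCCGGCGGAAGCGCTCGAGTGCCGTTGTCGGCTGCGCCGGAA
The capitals cover 183 bases with 22 CpG in LNPK and 155 bases with 23 CpG in MTX2, and each of these 250-base stretches contains GGGCGG and CCAAT on 1 strand or the other.

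Merged into regions, the window held 8 NSC-only regions of 25 (32.0%), close to the 30.6% of all 44534 regions of the series. A further 15 (60%, against 37.7% of all regions) were in 1 NSC library. ESC2 alone had 2 (8%, against 18.3% of all regions in 1 ESC library). None were ESC-only (both ESC libraries and no NSC library) or in all 4 libraries. Those classes held 1.65% and 3.27% of all regions. Of the 8 NSC-only regions 3 lay at gene ends (LNPK, HOXD8 and MTX2), 2 inside MTX2, 1 inside LOC107985962 and 2 outside genes. NSC peaks inside the cluster recurred in the other NSC library less often in number, with 1 of 3 in NSC1 and 1 of 5 in NSC2, than the flank peaks, with 7 of 12 and 7 of 11. Over the whole lists 60.8% of NSC1 and 74.5% of NSC2 peaks overlapped one of the other, and with so few peaks the difference was not tested. Joining peaks within 2 kb was an alternative chosen after the data were seen. It merged the NSC1 peak in HOXD3 with the nearer NSC2 peak into a second NSC-only region of the cluster. The other NSC2 peak in HOXD3 stayed separate, and the MTX2 start became a region of ESC2, NSC1 and NSC2.

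Per 100 kb, peaks were densest inside the cluster in both NSC libraries. NSC1 had 2.90 there, against 0.600 on the EVX2 side and 1.80 on the MTX2 side. NSC2 had 4.83, against 0.800 and 1.40. The genome values of these lists were 0.961 and 0.796. The MTX2 side was above them in both libraries, and the EVX2 side was below in NSC1 and level with it in NSC2. The strongest peak of the cluster had a −log10 q of 7.64 in NSC1 and 5.44 in NSC2. For the flanks, which held more peaks, it was 37.4 and 29.2. The median −log10 q of NSC1 was 5.93 in the cluster, 7.77 on the EVX2 side and 5.95 on the MTX2 side. In NSC2 these medians were 4.75, 4.34 and 7.07. Median pileups were highest in the cluster, at 21 in NSC1 (11 and 12 in the flanks) and 17 in NSC2 (8 and 10).

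**Figure D3:**
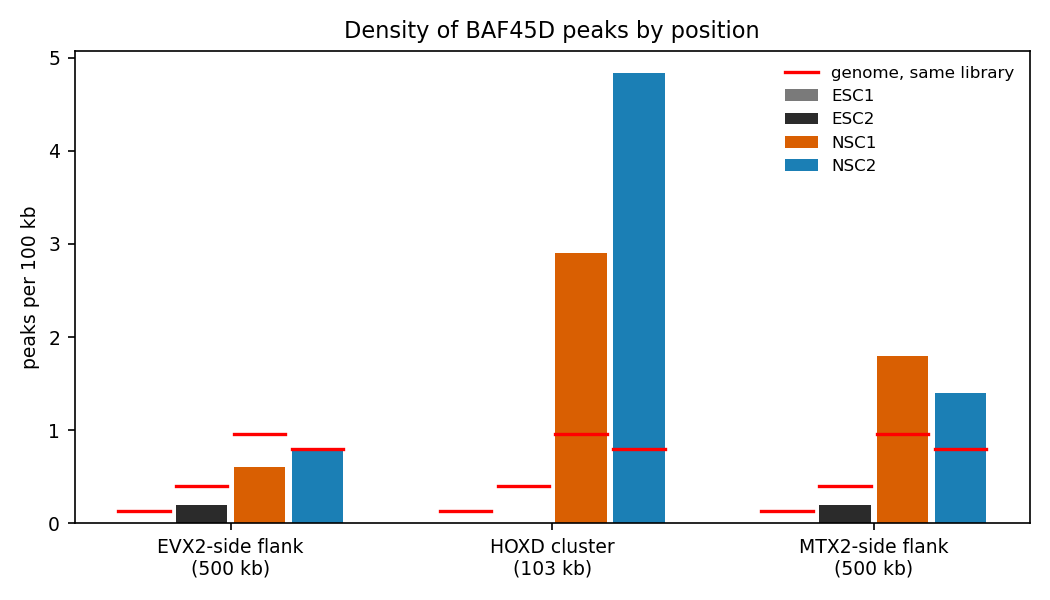
Peaks per 100 kb (vertical axis) in the cluster and in each flank for the 4 libraries (bars), with the genome value of the same list as a red line. In the cluster NSC1 reaches 2.90 and NSC2 4.83, above their genome values of 0.961 and 0.796, and the ESC bars are at 0.

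The cluster peaks in NSC stood on a raised surrounding signal. The authors' fold compares the pileup with the tags in the 10 kb around the summit, so the number of those tags can be worked back from the pileup and the fold, a step chosen after the data were seen. Over all peaks above the genome average, this gave whole tags, within 0.01, for 99.9% to 100.0% of peaks in each list. At HOXD8 there were 214 tags in NSC1 and 167 in NSC2, against genome averages of 18 and 17.3 tags per 10 kb. These are 11.9 and 9.63 times the average, at percentiles 97.1 and 95.6 of the peaks of each list. The HOXD3 peaks had 205 tags in NSC1 (11.4 times) and 190 and 226 in NSC2 (11 and 13.0 times). The NSC1 peak in HAGLR had 133 tags (7.41 times). Peaks of these lists had medians of 2.95 and 2.88 times.

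The level was not raised this far around every peak of the cluster. Around the NSC2 peak before HOXD12 there were 25 tags (1.44 times the average), and around the one between HOXD8 and HOXD4 there were 53 (3.05 times). In the flanks the multiples ran from 1.45 to 7.96 in NSC1 and from 1.27 to 7.15 in NSC2, all below those at HOXD8 and HOXD3 in the same list. The strongest peaks of MTX2, with 79 tags in each library, stood at 4.40 and 4.55 times. At both ESC2 peaks the value was at the genome average of 61.1 tags, the lowest the peak caller uses, so the tags there were at or below it. Where no peak was called there is no such value, so the level in the cluster in ESC was not measured. The tags of a peak count in its own surroundings, and their part in these multiples was not tested.

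**Figure D4:**
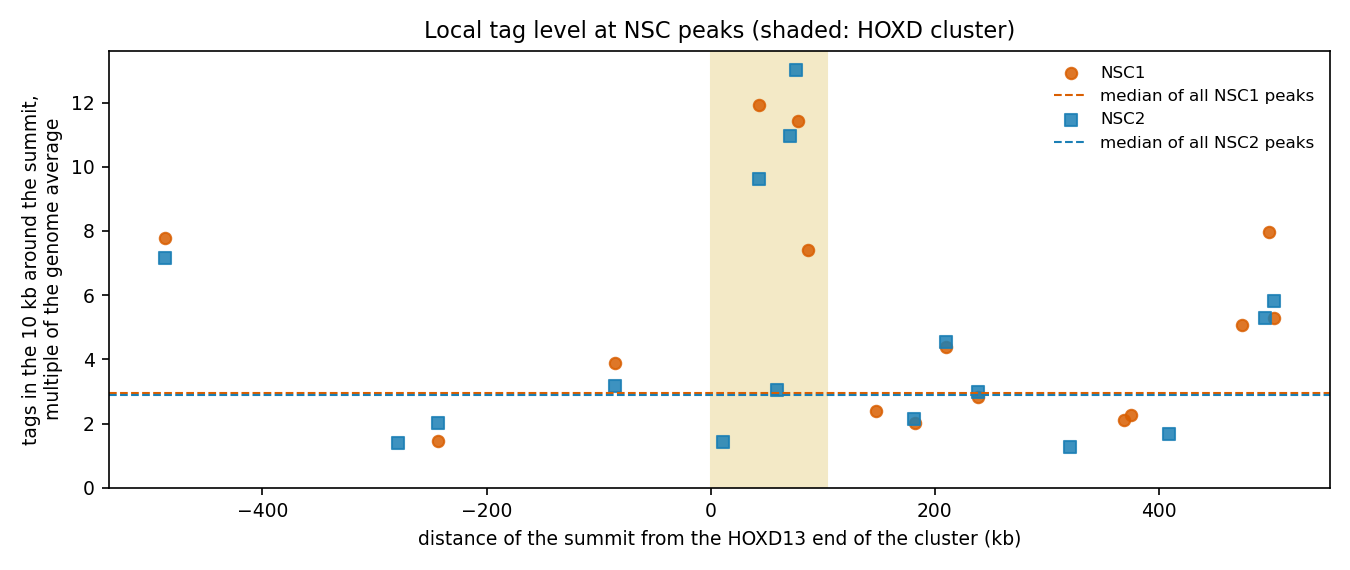
Tags in the 10 kb around the summit of each NSC peak, as a multiple of the genome average of the library (vertical axis), by distance from the HOXD13 end of the cluster; dashed lines are the medians of all peaks of each list. Points at HOXD8 and HOXD3 reach 9.63 to 13.0 times the average, while points in the flanks stay at 7.96 or below.

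Set beside the other HOX clusters, HOXD had the weakest leading peaks and the fewest genes called at their ends in NSC. NSC1 and NSC2 called 4 and 3 of 11 genes in HOXA and 3 and 2 of 10 in HOXB. They called 4 and 3 of 9 in HOXC and 1 and 1 of 9 in HOXD, against 42.8% and 38.1% of all protein-coding genes. In HOXB and HOXC 1 peak served several of these genes, so the counts are not of separate peaks. In NSC2, 1 peak served both genes called in HOXB and 1 served all 3 called in HOXC, as 1 served the gene called in HOXD. No ESC library had a peak inside any of the 4 clusters. Per 100 kb, NSC1 and NSC2 had 7.47 and 4.67 peaks in HOXA, 2.5 and 3.00 in HOXB, 5.12 and 2.56 in HOXC, and 2.90 and 4.83 in HOXD. The order of the clusters differed between the lists: HOXD lay between HOXC and HOXB in NSC1 and was the highest, just above HOXA, in NSC2. The strongest peak had a −log10 q of 18.7 and 19.0 in HOXA, 16.5 and 16.3 in HOXB, and 19.3 and 14.2 in HOXC. In HOXD it was 7.64 and 5.44, the lowest of the 4 clusters in both lists, a difference that was not tested. The median −log10 q over the peaks was 5.15 and 5.76 in HOXA and 7.66 and 4.75 in HOXB. It was 6.02 and 7.81 in HOXC and 5.93 and 4.75 in HOXD. By this median HOXD lay above HOXA in NSC1 and level with HOXB in NSC2. Surrounding tags were raised in all 4 clusters, with medians over their peaks of 15.4 and 11.9 times the genome average in HOXA, 12 and 10.2 in HOXB, 12.4 and 12.5 in HOXC, and 11.4 and 9.63 in HOXD.

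**Figure D5:**
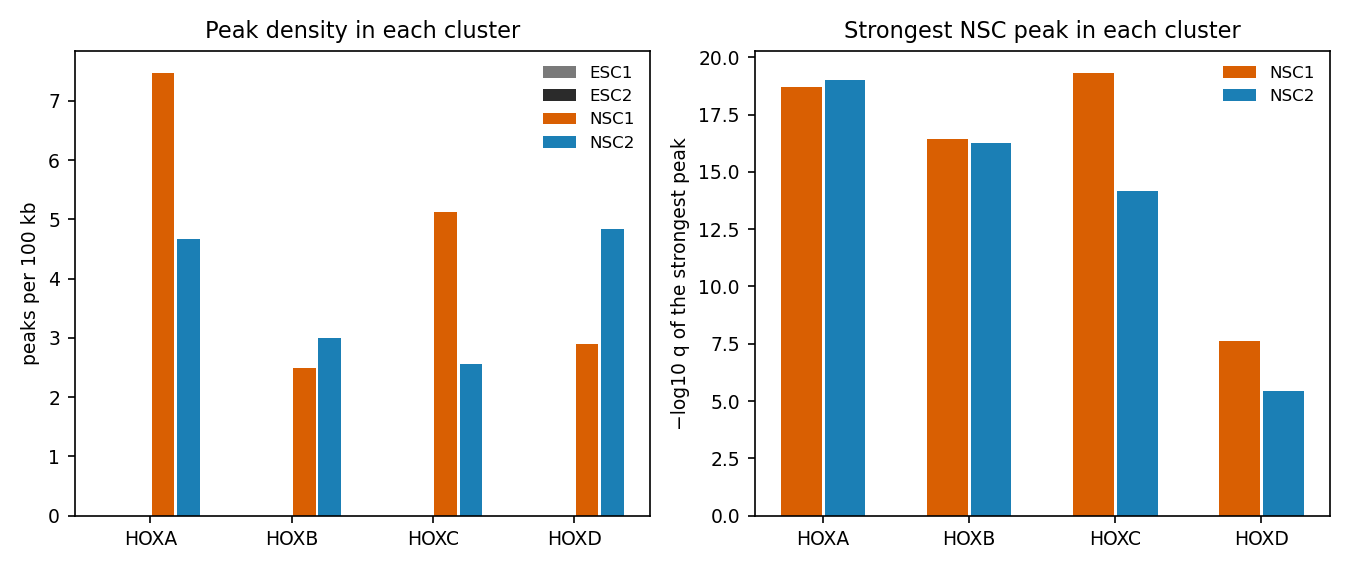
Left, peaks per 100 kb in each HOX cluster for the 4 libraries (ESC bars are at 0); right, −log10 q of the strongest NSC peak of each cluster in NSC1 and NSC2. HOXD has a density of 2.90 in NSC1, between HOXB and HOXC, and of 4.83 in NSC2, the highest of the 4 clusters, and its strongest peak is the lowest in both, at 7.64 and 5.44.

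HOXD8 shared its pattern of calls, both NSC libraries and neither ESC library, with 8 of the 30 HOX genes of the other clusters, and with 16.2% of all protein-coding genes. Among them were HOXA2 (−log10 q 9.60 in NSC1 and 5.78 in NSC2), HOXB3, HOXB5, HOXC4, HOXC5 and HOXC6. HOXB3 and HOXB5 had the same values (−log10 q 16.5 and 16.3), as did HOXC4, HOXC5 and HOXC6 (8.82 and 3.68), since 1 peak served each set. The likeness is over 4 libraries only. The anterior HOXD genes HOXD1, HOXD3 and HOXD4 had no gene-end call in any library, although an NSC2 peak lay 404 bp past the RefSeq start site of HOXD3. Of the 9 genes for PBX, MEIS and PKNOX cofactors, which bind DNA with HOX proteins, 7 were called at their ends in each NSC library, and 1 and 2 in ESC1 and ESC2. The shares over all protein-coding genes were 42.8% in NSC1, 38.1% in NSC2, 6.67% in ESC1 and 22.8% in ESC2. PBX3, PBX4, MEIS1 and MEIS2 were NSC-only (16.2% of all genes were), with −log10 q from 5.81 (PBX4) to 10.3 (MEIS2) in NSC1 and from 7.73 (PBX4) to 9.32 (PBX3) in NSC2. None of 8 upstream regulators of HOX genes (CDX1, CDX2, CDX4, GDF11, RARA, RARB, RARG and CYP26A1) had a gene-end peak in any library.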

How the data were processed

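BAF45D CUT&Tag libraries of H9 ESC (ESC1, ESC2) and of NSC derived from them (NSC1, NSC2) were analysed from 1 deposited peak list each. The submitters' processing notes name FastQC, Trimmomatic, BWA 0.7.12, MACS2 and hg38. Per the file headers, peaks were called per library with MACS 2.1.0.20150420, without a control, with q at 0.05, reads moved by -100 bp and extended to 200 bp, and the regional background taken over 10 kb. The authors deposited for each peak its pileup (a signal), −log10 p, −log10 q and fold enrichment (a ratio to the local background), all within 1 library. Those strengths were therefore compared within a list, and libraries were compared by presence of peaks. A nonspecific-antibody control was not used here.

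Peaks on chromosomes 1 to 22 and X were read with pandas 2.3.3, and entries with the same start and end were joined, keeping the highest −log10 q. Peaks overlapping by at least 1 bp were merged into regions. Genes and promoters came from RefSeq tables of GRCh38.p14, and exons were not used here. Local tags were computed as (pileup + 1) / fold − 1, times 10 kb / 200 bp. Group means were compared by an exact two-sided permutation test; the functions were tested on simulated data. Named genes are all members, genes of the window with a gene-end peak, every region of the cluster, up to 5 regions of each class in each flank, and HOX genes with the pattern of a called member. The members and lists were chosen with earlier results of these data known. Some named genes are not reported here. Alternatives are given in the closing section.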

Additional observations from a re-analysis of the deposited data

How the results depend on the processing

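The excess of NSC over ESC peaks in the window kept its direction under all 12 alternatives, from 2.5 peaks at equal list length to 15.5 with summits kept separate or without ESC2, and the exact p was 0.333 or, with a replicate block, 0.5. In the cluster the excess of 4 peaks kept its direction under 7 of 8 alternatives and was 0 at equal list length (exact p = 1). The block pairs ESC1 with NSC1 and ESC2 with NSC2. It left the differences at 14.5 and 4, and cannot give a p below 0.5. The numbers are not shown to pair the libraries (correlation of their deviations 0.0564 over 44534 regions). At −log10 q of at least 5, NSC-only regions fell to 4, members called at gene ends to 0 and within 10 kb to 1, and the mean NSC density of the cluster was 1.93 peaks per 100 kb against 3.87, while local tags rose to 11.8 times the genome average from 10.5. At equal list length (4204 peaks) those values were 2 regions, 0 and 0 members and a density of 0, with no local tags left to compute. With summits in place of intervals, no member was called at a gene end and no region was shared, because no pair of summits fell on the same base. With peaks counted within 10 kb, 3 members were NSC-only. Leaving out 1 library gave 8 to 16 NSC-only regions (16 without NSC1 and 15 without NSC2), 0 to 2 ESC-only regions (2 without ESC1) and 3 to 7 members within 10 kb (7 without NSC1). Regions shared by all libraries stayed at 0 in every alternative run. List length and depth differ between the cell types, and absence of a peak is not absence of binding.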

Other observations

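At non-coding genes of the flanks, 2 had gene-end peaks in both NSC libraries and in neither ESC library: the pseudogene EXTL2P1 and LOC124907910, a long non-coding RNA in the desert beyond MTX2. LINC01116 and LINC01117, long non-coding RNA genes further out, had no peak at their ends, and neither did MIR1246. The 4 NSC1 and NSC2 peaks around LOC124907910, between 176582342 and 176590503, stood at 5.29 to 7.96 times the genome average of tags, higher than at the start of MTX2 (2.00 and 2.13 times). HOXC13 was the 1 HOX gene with a gene-end peak in an ESC library (ESC2, −log10 q 2.05), and it had none in NSC1 or NSC2.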
